A study of Mus musculus with 4 samples.

Results

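The 43 genes described here encode proteins that pair, join, cut and repair the chromosomes in meiosis, or that start the meiotic programme. They are 43 of the 21938 protein-coding genes that GENCODE vM21 places on the mouse chromosomes, and were taken by symbol from a list of synapsis and recombination genes. A listed peak of linker histone H1t was assigned to a gene when it overlapped the gene body, from the first to the last annotated base on GRCm38, by at least 1 bp. Of the 48681 listed peaks, 29 met this rule, and 19420 overlapped a protein-coding gene of any kind. The 43 genes lie on 17 autosomes, are 4.507 to 342 kb long and together span 2.23 Mb.

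H1t occupancy was measured by ChIP-seq in testicular cells of C57BL6 mice at postnatal day 20. There were 2 libraries of chromatin immunoprecipitated with an anti-H1t antibody and 2 input libraries of the same chromatin with no antibody. The sample labels name pachytene cells, whereas the source is given as testicular cells and no enrichment step is described, so that H1t of pachytene cells and of other testicular cells cannot be told apart. The authors pooled each pair of libraries before they called peaks with MACS2, which left 39221290 ChIP and 30377916 input fragments after filtering and no value for a single library. All intervals given below therefore cover counting error only, no spread between mice or libraries was available, and no test was run.

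In the prophase of the first meiotic division, SPO11 and its partners cut the DNA along chromosome axes that are built by cohesins and axis proteins. Recombinases such as DMC1, which acts only in meiosis, then carry the broken ends into the homologous chromosome, and the synaptonemal complex zips the homologs together while some of the breaks become crossovers. Linker histones bind nucleosomes where DNA enters and leaves and take part in chromatin folding, and H1t is a form made in spermatocytes, in which many of these genes are used.

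Of the 5 peaks in these genes that were 300 bp long or shorter, 3 are printed whole, together with the middle of the peak with the highest fold of all 29, because they show how unlike one another the underlying sequences were. They are reference sequence of GRCm38.p6 from RefSeq, written 5′ to 3′ on the strand of the gene, in lower case with each CpG dinucleotide (the letters CG, which read the same on both strands) in capitals. The Stag3 peak (chr5:138304445-138304688, plus strand) holds no repeat-masked base, whereas the Mei4 peak with the highest fold (chr9:81906942-81907287, plus strand, middle at chr9:81906965-81907264) is masked as repeat over its whole length. The shorter Mei4 peak (chr9:81877999-81878294, plus strand) is 33.4% repeat, and the Msh5 peak (chr17:35036130-35036421, minus strand) is 69.2% repeat. A CpG was present in all 5 of these short peaks and in 81.5% of the 7905 listed peaks of this length.
Stag3: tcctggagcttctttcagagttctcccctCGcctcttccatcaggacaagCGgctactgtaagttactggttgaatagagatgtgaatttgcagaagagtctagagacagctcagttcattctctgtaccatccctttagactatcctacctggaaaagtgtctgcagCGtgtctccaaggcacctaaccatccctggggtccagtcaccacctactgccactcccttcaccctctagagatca
Mei4, highest fold: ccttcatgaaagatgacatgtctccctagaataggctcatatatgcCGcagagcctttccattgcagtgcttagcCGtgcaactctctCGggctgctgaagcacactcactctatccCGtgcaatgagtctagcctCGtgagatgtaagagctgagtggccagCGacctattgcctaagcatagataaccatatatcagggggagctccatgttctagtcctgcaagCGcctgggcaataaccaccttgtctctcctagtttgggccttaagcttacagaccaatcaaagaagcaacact
Mei4, shorter peak: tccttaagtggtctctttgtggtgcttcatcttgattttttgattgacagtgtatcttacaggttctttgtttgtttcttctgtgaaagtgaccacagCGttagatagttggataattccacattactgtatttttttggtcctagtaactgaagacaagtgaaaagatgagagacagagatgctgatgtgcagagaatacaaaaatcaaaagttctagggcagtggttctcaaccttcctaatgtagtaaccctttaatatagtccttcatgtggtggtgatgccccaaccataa
Msh5: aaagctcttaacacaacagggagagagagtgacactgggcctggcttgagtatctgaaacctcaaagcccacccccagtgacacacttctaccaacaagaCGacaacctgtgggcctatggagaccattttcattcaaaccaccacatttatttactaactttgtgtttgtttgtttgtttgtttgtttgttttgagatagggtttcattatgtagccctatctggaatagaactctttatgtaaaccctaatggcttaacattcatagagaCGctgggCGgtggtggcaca

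H1t peaks were found in 20 of the 43 genes, or 46.5% (95% Wilson interval 32.5 to 61.1%), and in 36.9% of the 20807 autosomal protein-coding genes. Within the length range of the 43 genes that share was 41.6%, so that carrying a peak was about as frequent among the meiotic genes as among other genes of such lengths. The number of peaks was lower. The 29 peaks gave 0.0130 peaks per kb, against 0.0196 per kb for all autosomal protein-coding genes. To take account of length, each gene was set beside the autosomal protein-coding genes of its own chromosome for which the longer of the pair was at most 25% longer than the shorter, here called its like-length genes, of which there were 16 to 265, with a median of 110. At the peaks per kb of their like-length genes the 43 genes would have held 44.0 peaks, so that the observed count was 0.659 times that number (95% exact Poisson interval 0.442 to 0.947). The genes were chosen with earlier results of these data known, in which meiotic genes already held few peaks.

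The distribution was uneven. 23 genes held no peak, 14 held 1, 4 held 2 (Stag3, Rec114, Hfm1 and Terb1), Brip1 held 3 and Mei4 held 4. The median gene of the list thus held 0 peaks, as did the median autosomal protein-coding gene. 16 genes lay above the count from their like-length genes and 27 below it. The 23 genes without a peak are among the 27 by construction, and the same split for other genes is not given. For the number of genes with a peak there was almost no difference, since 21.5 genes with a peak would have been counted at the shares of the like-length genes, against the 20 observed.

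**Figure D1:**
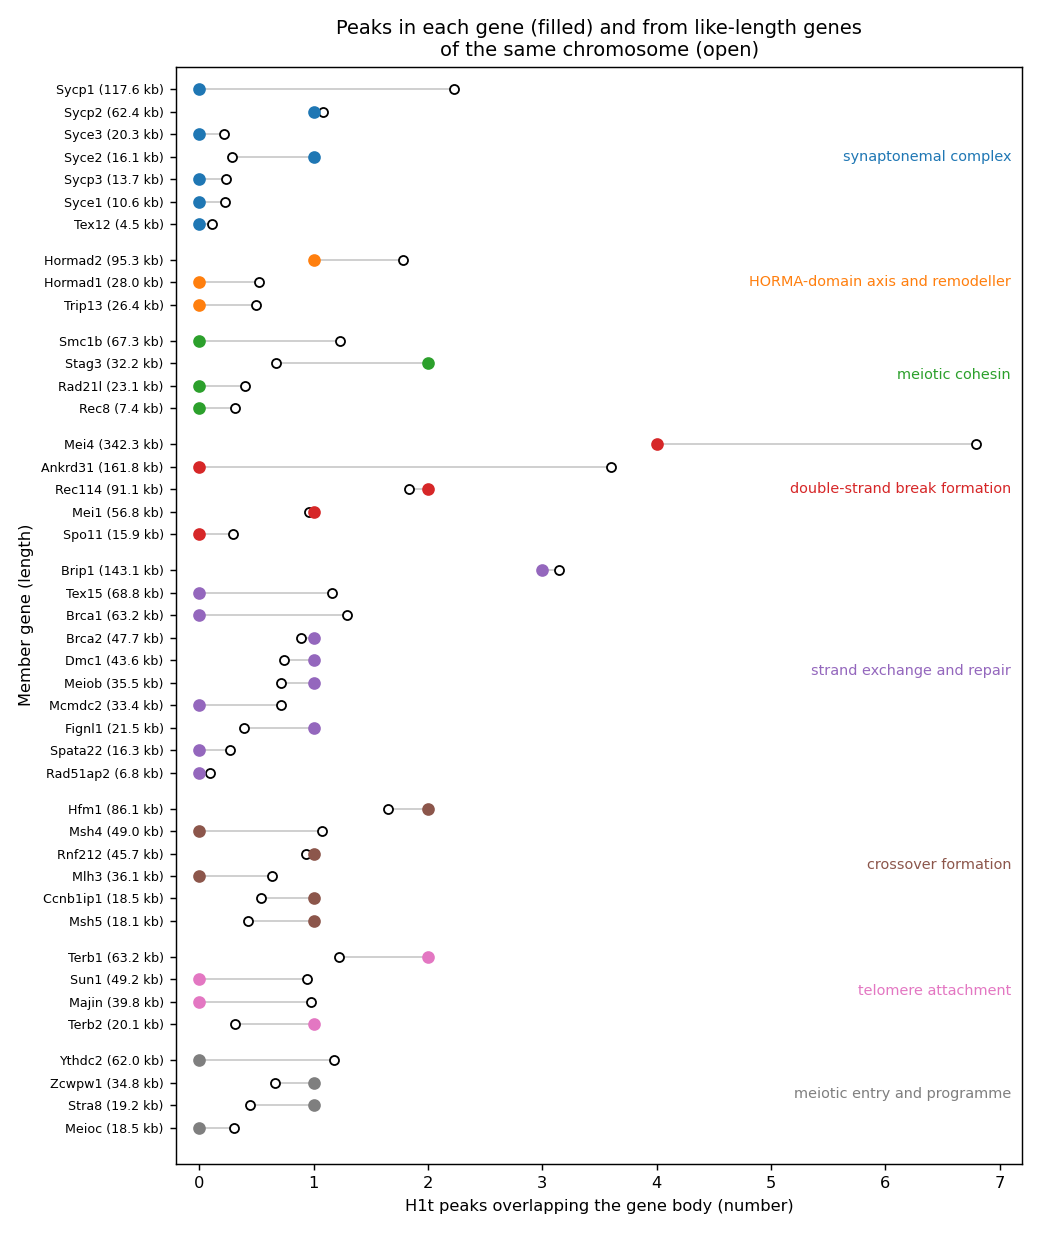
Each row is 1 of the 43 genes with its length in kb, grouped by role, and the x axis counts H1t peaks that overlap the gene body. Filled points are the observed peaks and open points the number from like-length genes of the same chromosome. Mei4 (4 against 6.80), Ankrd31 (0 against 3.60) and Sycp1 (0 against 2.22) show the widest gaps.

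Long genes lay further below their like-length genes than short ones, although the intervals overlap and the difference between them was not tested. The 14 genes over 50 kb held 16 peaks where their like-length genes gave 29.2, a ratio of 0.549 (0.314 to 0.891), and 8 of them had a peak. Among the 29 genes of up to 50 kb there were 13 peaks against 14.8, a ratio of 0.877 (0.467 to 1.5), and 12 genes with a peak. With Ankrd31, Mei4 and Sycp1 left out, the 3 genes furthest below their like-length genes, the ratio was 0.797 and its interval reached past 1 (0.516 to 1.18). These 3 were picked for their low counts, so that a rise of the ratio was fixed in advance. Both this omission and the split at 50 kb were added after seeing the data. Leaving out any single gene moved the ratio only between 0.623, without Stag3, and 0.718, without Ankrd31.

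The genes also differed from their like-length genes in base composition, and whether this accounts for the lower count was not tested. The genes had a median of 40.9% G and C bases and 33.8% repeat-masked bases, and their like-length genes 45.0% and 24.8%. In 34 of the 43 genes the G and C content was below the median of the like-length genes. When like-length genes were also required to lie within 2 percentage points of the gene's own G and C content, which left 1 to 55 of them with a median of 23, they gave 37.5 peaks, and the ratio was 0.774 with an interval that included 1 (0.518 to 1.11). A lower number of peaks than in genes of like length and G and C content was therefore not detectable with 29 peaks. Repeat content was not matched in this comparison. The interval of 0.518 to 1.11 takes the 37.5 peaks as exact, and it overlaps the one for like length alone (0.442 to 0.947).

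Among the 7 genes of the synaptonemal complex, 2 held a peak each, with a ratio of 0.457 to the like-length genes (0.0554 to 1.65). Sycp2, which encodes a lateral element protein, had a peak at chr2:178382391-178382789 in intron 15 of 43, with a fold of 1.83 over the local input background. It was the most AT-rich of the 29 peaks (32.6% G and C) and held no CpG. Syce2, for a central element protein, had a peak of 811 bp at chr8:84887730-84888540 that began in its 3′ UTR in exon 5, the last one, and ran past the gene end, with 492 bp inside the gene and a fold of 1.66. That region also overlapped the neighbouring gene Gcdh, and it was the only peak of the 29 that overlapped a second gene. No peak was listed in Sycp1 (118 kb), which encodes the transverse filament, in Sycp3 (13.7 kb), for the other lateral element protein, or in the central element genes Syce1 (10.6 kb), Syce3 (20.3 kb) and Tex12 (4.507 kb).

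Sycp1 stood out by its length, because 81.1% of its 53 like-length genes had a peak and they gave 2.22 peaks for a gene of its size. The peak nearest to it began 73.4 kb beyond its 3′ end.

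HORMAD1 and HORMAD2 coat chromosome axes that are not yet synapsed, and TRIP13 is the ATPase that removes them. In Hormad2 (95.3 kb) a single peak lay at chr11:4356500-4356928 in intron 10 of 10, 84.4 kb from the 5′ end, with a fold of 1.68 and the lowest listed pileup, 9 fragments. Hormad1 (28.0 kb) and Trip13 (26.4 kb) held none, and for Trip13 the nearest peak was 9.86 kb downstream. The ratio for the 3 genes was 0.356 (0.00901 to 1.98).

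The meiotic cohesins hold sister chromatids together and form the base of the axis. Stag3, whose product is shared by the meiotic cohesin complexes, was the gene with the most peaks per kb of all 43 (0.0622 per kb over 32.2 kb), with 2 peaks against 0.669 from its like-length genes, and 164 of these 175 genes had fewer peaks per kb. The 2 Stag3 peaks lie within 3 kb of each other and become 1 when peaks within 3 kb are merged. The rank of Stag3 per kb thus rests on counting them apart. The first peak, at chr5:138301355-138301762, was centred in coding exon 25 of 34 and had a fold of 1.77. The second is the printed sequence, with a fold of 1.84, and was centred in intron 28, with 162 of its 244 bp in annotated exons and an annotated start of a shorter transcript 7 bp away. These were the only peaks of the 29 with no repeat-masked base. The other cohesin genes held none, namely Smc1b (67.3 kb), for a core subunit, and Rec8 (7.36 kb) and Rad21l (23.1 kb), for the kleisins that close the ring. For the longest of them, Smc1b, 65.5% of the like-length genes had a peak, and the nearest one lay 38.2 kb upstream. Over the 4 genes the ratio was 0.767 (0.0929 to 2.77).

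Genes for break formation included the longest of the list and held 7 peaks where their like-length genes gave 13.5, a ratio of 0.519 (0.209 to 1.07). Mei4 (342 kb), which encodes an axis-bound partner of SPO11, had 4 peaks against 6.80, and all 16 of its like-length genes had at least 1. They lay 14.5, 43.4, 154 and 287 kb from the 5′ end, with folds of 1.76, 1.96, 1.70 and 1.89. The fold of 1.96 (p = 0.00663 from the authors' peak caller) was the highest of the 29 and belonged to the fully masked peak printed above, in intron 2 of 4. The peak with a fold of 1.89 (chr9:82150773-82151170) lay beyond the end of the transcript used here and in intron 4 of a longer coding one. The 1 remaining, at chr9:82017450-82017750, was in intron 4 and only 8.97% repeat. Within a single gene the repeat content of the peaks thus spanned nearly the whole range.

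Rec114 (91.1 kb), for a second partner of SPO11, had 2 peaks against 1.83, at chr9:58678310-58679030 (fold 1.79) and chr9:58671454-58672434 (fold 1.69), both in intron 2 of 5. Mei1 (56.8 kb), also required for breaks, had 1 against 0.965 at chr15:82115489-82115738, centred in intron 18 of 23, with a fold of 1.78 and 5 CpGs. Spo11 (15.9 kb), for the enzyme that makes the cut, had no peak in its body, and the nearest was 2.71 kb upstream. Ankrd31 (162 kb), whose product binds REC114, was the longest gene with no peak. Its like-length genes gave 3.60 peaks, 94.1% of these 34 genes had one, and the nearest peak lay 36.0 kb beyond its 3′ end.

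Strand exchange and repair was the largest role, with 10 genes, of which 5 held 7 peaks against 9.41 (ratio 0.744, 0.299 to 1.53). Brip1 (143 kb), for a helicase that binds BRCA1, held 3 against 3.15. From the 5′ end these were at chr11:86188414-86188814 in intron 5, at chr11:86134294-86135408 in intron 14 and at chr11:86078335-86078750 in intron 16, with folds of 1.70, 1.87 and 1.67. The first and the last were 76.1 and 60.8% repeat. Dmc1 (43.6 kb), for the meiotic recombinase, had 1 peak at chr15:79567891-79568332 in intron 13 of 13, 66.7% repeat, and its fold of 1.65 was the lowest of the 29. Brca2 (47.7 kb), whose product loads the recombinases, had 1 at chr5:150527911-150528337 in intron 2, 98.1% repeat with a fold of 1.69. These repeat-rich peaks of Brip1, Dmc1 and Brca2 contrast with the repeat-free ones of Stag3, while the middle Brip1 peak was 35.0% repeat.

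Meiob (35.5 kb), which encodes a single-strand DNA-binding protein, had a wide peak of 1776 bp at chr17:24811460-24813235 in intron 1 (fold 1.72). Fignl1 (21.5 kb), for an ATPase that acts on recombinase filaments, had 1 at chr11:11797024-11798104 (fold 1.81). The Fignl1 peak had the highest pileup of the 29 (10.9 fragments) over the highest local background (5.59, where 4.95 was the most common value among listed peaks), and lay outside the coding transcript used, in intron 3 of a non-coding one. No peak was listed in Brca1 (63.2 kb), Tex15 (68.8 kb), Mcmdc2 (33.4 kb), Spata22 (16.3 kb), which encodes the partner of MEIOB, or Rad51ap2 (6.85 kb). Brca1 and Tex15 are both needed in repair, and their like-length genes gave 1.29 and 1.16 peaks. The nearest peak was 14.5 kb downstream of Brca1 and 9.31 kb upstream of Tex15.

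The crossover genes were the role closest to their like-length genes, with 5 peaks against 5.25 (ratio 0.952, 0.309 to 2.22) in 4 of 6 genes. Hfm1 (86.1 kb), for a helicase needed for most crossovers, had 2. One of 1132 bp at chr5:106903729-106904860 was centred in coding exon 8 of 39 (fold 1.83), and the other, at chr5:106859820-106860696, was in intron 30 (fold 1.71). Msh5 (18.1 kb), for a subunit of the MutS pair that stabilises recombination intermediates, had the printed peak in intron 12 of 24 with a fold of 1.79. Its partner Msh4 (49.0 kb) held none, and of the 23 genes without a peak it had the closest one outside, within 2 kb of its 3′ end.

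Rnf212 and Ccnb1ip1 encode ring-finger proteins that select the sites of crossing over. The Rnf212 peak (chr5:108753082-108754084, fold 1.78) was in intron 5 and held no CpG over 1003 bp. The Ccnb1ip1 peak (chr14:50806027-50806875, fold 1.66) lay in intron 1 of a second coding transcript of the gene. Mlh3 (36.1 kb), for the endonuclease subunit that resolves crossovers, held none.

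TERB1, TERB2 and MAJIN tie telomeres to SUN1 in the nuclear envelope, so that chromosomes can be moved to find their partners. Terb1 (63.2 kb) had 2 peaks against 1.22. The one at chr8:104472600-104472851, centred in coding exon 14 of 20, had a fold of 1.92, and together with the pair in Mei4 it was 1 of the 3 peaks with a p under 0.01. The second, at chr8:104469963-104470545, was in the next intron with a fold of 1.75. These 2 peaks also become 1 when peaks within 3 kb are merged. Terb2 (20.1 kb) had 1 of 1234 bp at chr2:122205734-122206967, centred in its 3′ UTR in exon 7 of 7, with 664 bp inside the gene and a fold of 1.86. Sun1 (49.2 kb) and Majin (39.8 kb) had none. For the 4 genes the ratio was 0.870 (0.179 to 2.54).

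Of the 4 genes of meiotic entry, Stra8 (19.2 kb), which responds to retinoic acid and starts meiosis, had 1 peak at chr6:34935228-34935750 in intron 7 of 9 (fold 1.71). Zcwpw1 (34.8 kb), for a reader of the histone marks that PRDM9 sets at break sites, had the widest peak of the 29, 3141 bp at chr5:137809058-137812198, centred in intron 8 of 16 with a fold of 1.73 and 32 CpGs. Meioc (18.5 kb) and Ythdc2 (62.0 kb), whose products act together on mRNA to end the mitotic programme, had none. The ratio for the role was 0.770 (0.0933 to 2.78). The intervals of all 8 roles included 1 and overlapped one another, so that no role differed from its like-length genes by more than counting error, and no role was tested against another.

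Per kb, the genes after Stag3 were Syce2 (0.0621), Msh5 (0.0551), Ccnb1ip1 (0.0541), Stra8 (0.0521), Terb2 (0.0497) and Fignl1 (0.0464). All of these are 16.1 to 21.5 kb long and hold 1 peak, and a single peak in a gene of that size gives such a density by itself.

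The 29 peaks were weak and close to the rest of the list in strength. Their fold, the ratio of ChIP pileup to local input background given by the peak caller, was 1.65 to 1.96 with a median of 1.76, against a median of 1.73 over all 48681 peaks, and 17 of the 29 lay above that median. The pileup was 9 to 10.9 fragments, median 9.57 (9.41 over all peaks), and 5 peaks were at the lowest listed value of 9, as were 19.9% of all peaks. None had a fold of 2 or more, which 3.64% of all peaks had, and none had a q under 0.05, which 124 of all peaks had. The −log10 of the q was 0 for all 29, so that each stands on an unadjusted p of 0.00663 to 0.0337. A p under 0.01 was given to 3 of the 29 (10.3%) and to 11.8% of all peaks. The list used starts at peak number 310, and the 309 earlier numbers were not analysed here. The numbers of the 29 peaks rise with chromosome, ordered as text, and with position, from 6539 on chromosome 11 to 47831 on chromosome 9. If the whole list is numbered so, the earlier numbers precede every peak from chromosome 11 onwards in that order. A gene without a listed peak is still not shown to lack H1t.

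**Figure D2:**
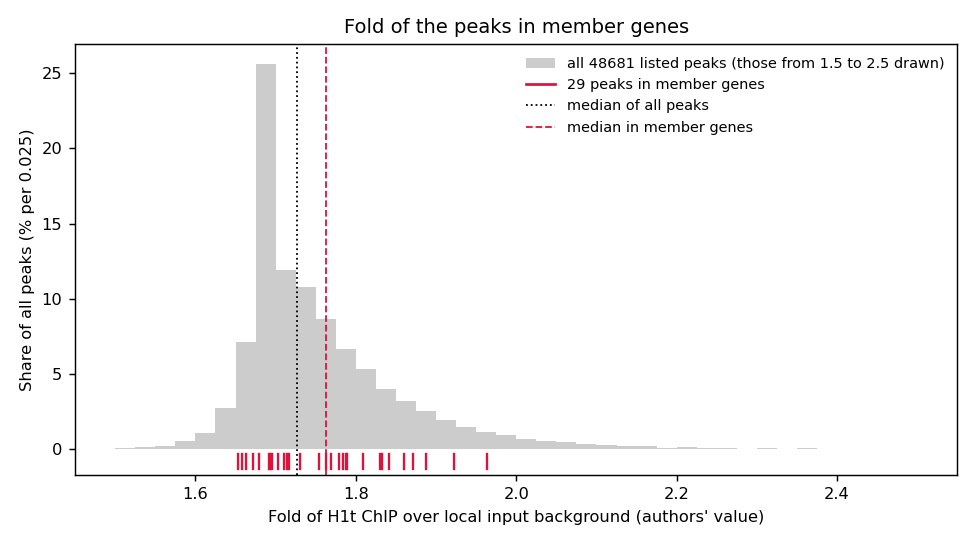
Grey bars give the share of all 48681 listed peaks (%, y axis) by fold of H1t ChIP over local input background (x axis, 1.5 to 2.5 drawn), and red ticks mark the 29 peaks in the meiotic genes. The ticks run from 1.65 to 1.96, and their median (dashed, 1.76) is next to that of all peaks (dotted, 1.73).

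The peaks were 244 to 3141 bp wide with a median of 442 bp, narrower than the median of 653 bp over all peaks. For 23 of them the local background was within 2% of the most common value among listed peaks, 4.95 fragments, which was also the lowest. The fold of these 23 was thus their pileup over a nearly constant value. For 6 (20.7%, against 22.3% of all peaks) the background was raised by over 2%.

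Within the genes most peaks lay in introns. By their centres and the chosen transcript of each gene, 21 of 29 were intronic (72.4%, Wilson interval 54.3 to 85.3%), 3 were in coding exons (Stag3, Hfm1 and Terb1), 2 in 3′ UTRs (Syce2 and Terb2) and 3 outside that transcript but inside the gene (Mei4, Fignl1 and Ccnb1ip1). Introns made up 92.8% of the span of the chosen transcripts of all 43 genes, and of the 26 peaks centred inside a chosen transcript 80.8% were intronic (62.1 to 91.5%), an interval that lies below that share. The 3 outside it were in introns of other transcripts. With RefSeq models the intronic share was 86.2% (69.4 to 94.5%), an interval that included 92.8%. The 92.8% belongs to the chosen GENCODE transcripts, and the intron share of the RefSeq models is not given. The intronic share of peaks in other genes is not given, so no trait particular to these genes is shown. By their whole width, 12 peaks touched an exon of some annotated transcript. With each gene cut from 5′ to 3′ into 3 parts of equal length, 7 peaks fell in the first, 10 in the middle and 12 in the last, and the median peak was 62.8% of the way along. In other genes the shares were 31.6, 33.6 and 34.9%, which also rise slightly, and the difference between the orders was not tested.

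**Figure D3:**
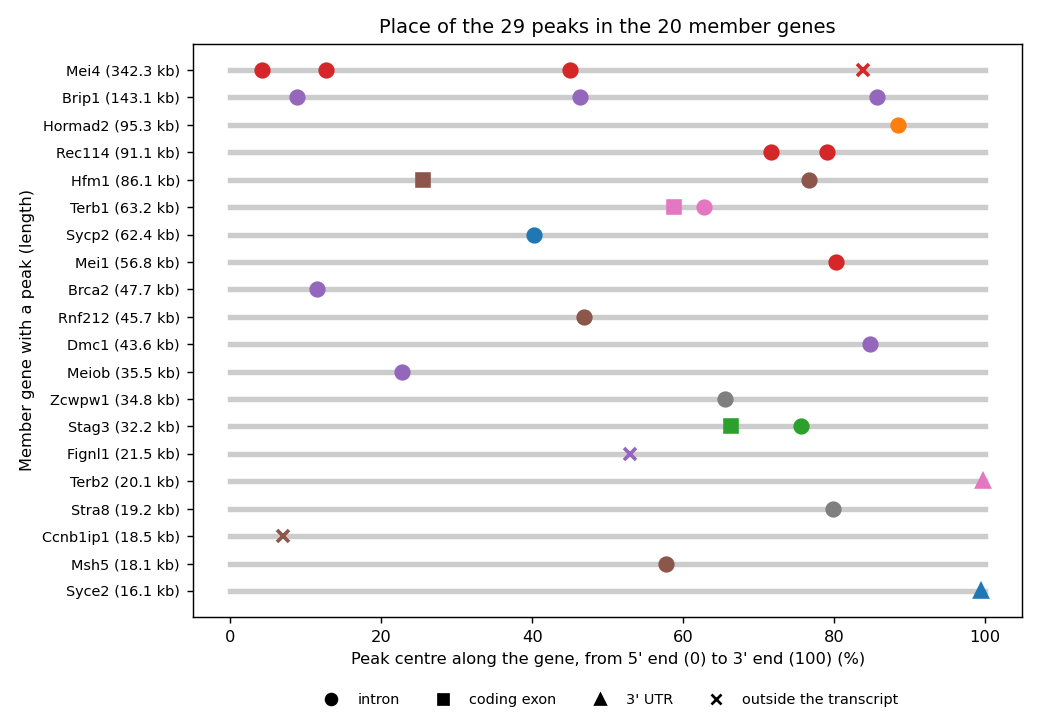
Each grey line is 1 of the 20 genes with a peak, scaled from its 5′ end (0%) to its 3′ end (100%), and each symbol is the centre of a peak. Circles are introns, squares coding exons, triangles 3′ UTRs and crosses positions outside the chosen transcript, and 12 of the 29 fall in the last of 3 equal parts.

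Starts of transcription were seldom close. A peak within 1 kb of any annotated start was found for 4 of the 43 genes, and for 8.43% of the 20807 autosomal protein-coding genes, which is a similar share. In Stag3 the start was 7 bp away, in Brca2 769 bp and in Ccnb1ip1 857 bp, while the wide Zcwpw1 peak covered one. Only the Ccnb1ip1 peak was near the 5′ end of its gene, and the other starts belong to transcripts that begin inside the gene. From the 5′ end of a gene to the nearest peak, inside or outside it, the median distance was 23.0 kb (0.857 to 108 kb), against 19.2 kb for protein-coding genes. A peak within 10 kb of the 5′ end was listed for 8 genes, or 18.6%, against 30.3% of protein-coding genes, which were not matched for length or composition. No interval was computed for this share, and the difference was not tested.

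Peaks were somewhat more frequent around the genes than in them, by a margin within counting error. Counted by centres, the gene bodies had 13.0 peaks per Mb (8.70 to 18.6) and the flanks up to 100 kb on each side 17.1 per Mb (147 peaks, 14.4 to 20.1), a ratio of 0.760 with an interval that included 1 (0.492 to 1.14). For all autosomal protein-coding genes the bodies had 19.4 and the flanks 19.7 per Mb, a ratio of 0.984. Flanks of neighbouring genes overlap, so that 1 peak can be counted for several genes. The flanks of all genes held 81995 centres in this way, from 48681 listed peaks. Upstream and downstream flanks of the meiotic genes had 18.1 (14.3 to 22.6) and 16.0 (12.5 to 20.3) per Mb, with overlapping intervals. The first 10 kb on the 2 sides together had 10.5 per Mb on 9 peaks (4.79 to 19.9), and all genes had 18.7 per Mb there. Of the 23 genes without a peak, 4 had one within 10 kb, Msh4, Spo11, Tex15 and Trip13. The share among other genes without a peak is not given, so that this count cannot be called high or low.

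**Figure D4:**
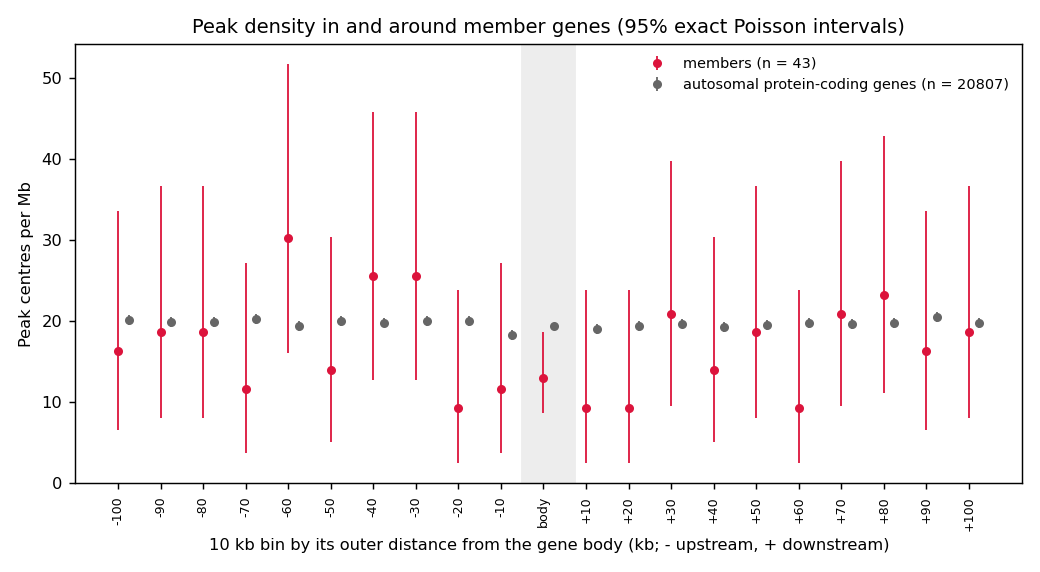
Peak centres per Mb (y axis) in gene bodies and in 10 kb bins up to 100 kb upstream and downstream (x axis), for the 43 meiotic genes (red) and 20807 autosomal protein-coding genes (grey), with 95% exact Poisson intervals. The red body point is at 13.0 per Mb below a grey one at 19.4, and the red intervals of single bins are wide. Grey intervals are too narrow, because a peak in overlapping flanks is counted for each gene.

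In base composition the peaks of these genes resembled the list as a whole. Their median G and C content was 43.1%, close to the 44.0% of all listed peaks, and 19 of 29 were richer than their own gene. Repeat-masked bases made up a median of 25.8% of a peak (23.6% over all peaks), and 10 of 29 exceeded their own gene. Repeats covered 50% or more of 7 peaks, or 24.1%, against 24.3% of all listed peaks, and these lay in Mei4, Brca2, Brip1, Msh5, Dmc1 and Ccnb1ip1. The median number of CpGs per 100 bp was 0.832 (0.729 over all peaks), and 3 peaks, in Sycp2, Mei4 and Rnf212, had none, as did 6.41% of all peaks.

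**Figure D5:**
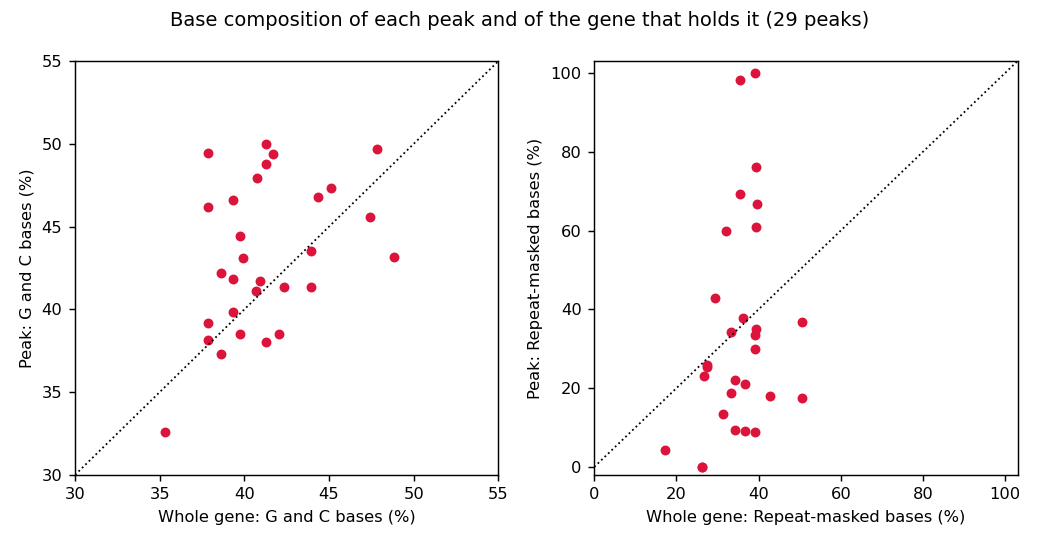
Each point is 1 of the 29 peaks, with the percent of G and C bases (left) or of repeat-masked bases (right) in the whole gene on the x axis and in the peak on the y axis. Points above the dotted line of equality number 19 on the left and 10 on the right, and on the right the peaks spread from 0 to 100% while the genes do not.

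A second list of 76 other meiotic genes, such as further recombinases, cohesin subunits and checkpoint kinases, was counted in the same way. Of the 73 that could be matched, 69 were autosomal and 4 lay on the X chromosome, where none held a peak. The 4 genes on the X chromosome were not set beside like-length genes. The share of other X-chromosomal genes with a peak is not given, so that their lack of peaks cannot be called a trait of these genes. In the 69 there were 57 peaks against 71.7 from like-length genes (ratio 0.795, 0.602 to 1.03), and 31 (44.9%) had a peak, against the 31.4 given by the shares of their like-length genes and the 41.6% noted above. They held 0.0163 peaks per kb. The most were in Rad51b (517 kb) with 10 against 12.1, and 5 genes tied at 3, Mnd1, Pds5a, Rad51c, Rad9b and Six6os1, against 0.436 (Rad51c) to 1.77 (Pds5a). For both lists the ratio was below 1 while the number of genes with a peak was near that of their like-length genes. Both lists were chosen with earlier results known, in which meiotic genes held few peaks, so the second is no independent support.

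Gene models affected single genes. With the RefSeq models the peaks of Syce2, Fignl1 and Ccnb1ip1 fell outside the gene and Rec114, modelled as 170 kb long, held 5 in place of 2, so that 17 genes had a peak and the total was again 29.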

How the data were processed

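The report covers 2 H1t ChIP and 2 input libraries of testicular cells of mice at postnatal day 20. The authors used FastQC 0.11.5 to check the reads, Bowtie2 in local mode for alignment to GRCm38.p5, and MACS2 2.1.2 for broad peaks of the pooled libraries, at an unadjusted p cutoff of 0.05, an effective genome size of 1.87e+09 and 1 copy of each duplicate fragment. The table header gives 51192421 ChIP fragments (39221290 after filtering), 55300487 input fragments (30377916 after filtering) and a mean fragment of 241 bp. The deposited table holds, per peak, the signal (the authors' pileup of ChIP fragments, scaled by them to the smaller depth), the −log10 of the p-value, the −log10 of the q-value (the authors' header says that q was not computed, yet the column holds values) and the fold, a ratio of pileup over local input background computed by the authors. The first peak of the list is number 310 and the last 48990, and the 309 numbers before it were not analysed here. Columns of single-sample values left out numbered 0.

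Local background was obtained from pileup and fold, with 1 added to both pileup and background as the peak caller does. Genes, transcripts and starts came from GENCODE vM21 and sequence from GRCm38.p6, whose primary chromosomes share coordinates with GRCm38.p5. The transcript chosen per gene was a coding one, a principal isoform where the annotation marks one and otherwise the longest, and lower-case bases of the genome were taken as repeats. Members were counted in bodies, at starts (within 1 kb) and in flanks, and set beside like-length genes, from which the 43 members were left out. Counts carry 95% exact Poisson intervals, shares Wilson intervals and the ratio of body to flank an exact conditional interval. These cover counting error only and take peaks as independent. Every member with a peak was named with its peaks, the members without one by length, the 5 longest of them with their nearest peak, and of the other meiotic genes up to 4 with the most peaks. A tie at 3 peaks made that 6 genes, a choice made after their values were seen. Spo16, Speedya and Zcwpw2 were not matched. The members and lists were chosen with earlier results of these data known, in which meiotic genes already held few peaks, so their low count is no independent support.

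Analyses used Python 3.11.15, numpy 2.4.6, pandas 2.3.3, scipy 1.17.1, pysam 0.24.0 and matplotlib 3.10.9. The counting was tested on simulated data: it was right for 2000 of 2000 genes and returned a ratio of 0.49 where 0.5 was set.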

Additional observations from a re-analysis of the deposited data

How the results depend on the processing

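The count in the 43 genes stayed below that of their like-length genes under 9 other settings, and under 4 more that were added after seeing the data, with ratios of 0.549 to 0.877, against 0.659 as reported. Its interval included 1 for genes also of like G and C content (0.774), without the 3 genes furthest below (0.797), for genes of up to 50 kb (0.877) and for peaks with a p under 0.01 (0.639, on 3 peaks). Genes with a peak numbered 17 to 22 in 8 settings, and starts 3 to 4 in 3. Only peaks with q under 0.05 or only those with a fold of at least 2 left 0 peaks in the genes, a ratio of 0 (0.106 and 1.29 peaks from like-length genes), 0 genes with a peak, 0 starts and no intronic share. Only peaks with p under 0.01 left 2 genes with a peak, 0 starts and an intronic share of 33.3%. These filters leave fewer peaks by their construction. The RefSeq annotation gave 1 start with a peak and an intronic share of 86.2% (69.4 to 94.5%), and the cause was not tested. A start window of 100 bp gave 2 genes, one of 5 kb 8, and the 5′ end alone 1, because fewer or more bases or starts are searched by construction. No paired analysis was possible because the peaks were called once on pooled libraries, and for the same reason no library could be left out. With 29 peaks the 95% interval of the ratio ran from 0.442 to 0.947, so that smaller differences between roles or gene parts could not be seen.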
